A study of Homo sapiens with 6 samples.

Results

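Expression of 9 genes of the p53 family and of the p53 response was examined in oral squamous cell carcinoma (OSCC) cells after knockdown of the long noncoding RNA DLEU1. The genes were TP63, TP73, MDM2, CDKN1A, FAS, SESN1, BBC3, TP53I3, and GDF15, and they were taken as every probe that the array's own annotation assigns to these names. This gave 16 probes for 9 of 36337 gene names, out of 50599 probes. HSC-3, KON, and Ca9-22, which are established human OSCC cell lines, were transfected with siDLEU1-2, a siRNA against DLEU1, or with a negative control siRNA (siCtrl), using the same lipid reagent, and RNA was taken after 72 h. One-color Agilent expression arrays were hybridized with labeled cRNA, amplified from 100 ng of total RNA, with 1 array per line and siRNA and 6 arrays in all. The 3 lines are therefore the only replicates, and nothing in the labels describes separate cultures within a line. No p-value measures the spread between cultures of 1 line. The limma p-values use each probe's spread between these lines, moderated by the spread of all probes tested.

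The p53 protein is a transcription factor that is stabilized by DNA damage and other stresses, and it switches on genes for cell cycle arrest, repair, metabolism, and cell death. TP63 and TP73 encode its relatives, which bind similar DNA elements. In stratified epithelia such as the oral mucosa, p63 maintains the basal layer and is a defining protein of squamous carcinoma. MDM2 encodes the ubiquitin ligase that degrades p53 and is itself switched on by p53, so the pair form a feedback loop. The other 6 genes are targets with different outputs. CDKN1A encodes the cyclin-dependent kinase inhibitor p21, BBC3 the BH3-only death protein PUMA, FAS a death receptor, SESN1 an inhibitor of mTORC1 signaling, TP53I3 a quinone oxidoreductase, and GDF15 a secreted stress cytokine.

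Processed signals were converted to log2 and centered so that 0 is the 75th percentile of the probes on an array. This value is called the level below. A level compares arrays for 1 probe and cannot rank genes, because probes differ in how well they bind. The signal at the 75th percentile was 200 to 257 units over the 6 arrays, and each array had 43.0 to 45.7% of its probes well above background, so the arrays were similar in these measures. DLEU1 itself, measured by 1 probe, had log2 fold changes after siDLEU1-2 of -3.44 (Ca9-22) to -4.10 (HSC-3). On all 6 arrays, the 8 squamous epithelial marker genes examined gave signals well above background. Of the 6 fibroblast marker genes, 4 were not well above background on any array, and only COL1A1 was on all 6. Only CD14 of the 5 leukocyte marker genes on the array, and none of the 4 endothelial ones, passed on all 6. RNA came from whole cultures, in which fewer cells of a type and less RNA per cell cannot be told apart. Only siDLEU1-2 was used on the arrays, and the study's other siRNA against DLEU1 and its PCR assays were not analysed here. From the arrays alone, an effect of losing DLEU1 and an effect of the siRNA's own sequence cannot be told apart.

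The guide strand of siDLEU1-2 is shown first because every comparison rests on it. Its seed, bases 2 to 8 from the 5′ end, is in capitals, and none of the 16 probes contains the matching heptamer GCACTTA. Full transcripts were not searched.
siDLEU1-2 guide: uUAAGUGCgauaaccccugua

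The probes of the p53 relatives are shown next, 5′ to 3′, because the TP63 result rests on a single probe of 60 bases. The longest run that it shares with the first TP73 probe is 7 bases, in capitals in both, and with the second TP73 probe 6 bases, in capitals in that probe. In hg19, the TP63 probe lies on the plus strand at chr3:189586433-189586492, inside the coding part of the gene, and the array annotation lists it under 4 RefSeq transcripts. Among these is the TA form NM_003722 and the shorter NM_001114982, which starts from the internal promoter and encodes a ΔN form, so this probe does not separate the isoform classes. The TP73 probes lie on the plus strand at chr1:3645911-3645970 and chr1:3649541-3649600.
TP63 A_24_P273756: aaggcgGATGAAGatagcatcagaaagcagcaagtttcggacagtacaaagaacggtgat
TP73 A_33_P3296831: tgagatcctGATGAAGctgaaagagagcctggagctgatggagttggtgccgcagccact
TP73 A_24_P413470: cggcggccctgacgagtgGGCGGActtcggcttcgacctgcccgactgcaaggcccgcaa

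TP63 RNA fell after siDLEU1-2 in all 3 lines, by similar amounts in HSC-3 and KON. Its level was 0.77 with siCtrl and -1.61 with siDLEU1-2 in HSC-3 cells. In KON it went from -0.15 to -2.50 and in Ca9-22 from -0.40 to -3.08. Every knockdown array was below every control array, so the groups did not overlap. On the log2 scale the line values of -2.37, -2.35, and -2.68 had a mean of -2.46 ± 0.18 (SD, n = 3 lines) and a limma standard error of 0.148 (adjusted p = 0.0227). In Ca9-22 the siDLEU1-2 array was not well above background for this probe. The probe's value there was still higher than the lowest signal well above background on that array, at -3.289. The 6.39-fold decrease in that line is therefore the measured ratio, limited by background and not a lower bound. The decrease was 5.17-fold in HSC-3 and 5.09-fold in KON.

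TP63 was the only one of the 14 member probes tested that limma called lower, where 4.52% of all 19956 probes tested were called lower. It was also the only member probe over 2-fold the same way in all 3 lines, where 4.16% of all probes were. The size depended on the treatment of background, since normexp background correction gave a mean of -1.39 (adjusted p = 0.012). Without HSC-3 the adjusted p was 0.0808 and without KON it was 0.103, so the call was lost with either line left out. It was retained without Ca9-22, with an adjusted p of 0.0467. The call was also lost with no filter on dim probes (adjusted p = 0.141), without the replicate block for cell line (0.29), and with the methods' t-test (0.475), and the filter on all 6 arrays removes the probe.

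The level of TP63 also differed between lines. HSC-3 was higher than KON and Ca9-22 with each siRNA, and the limma F-test of the line terms gave an adjusted p of 0.0124, a call that was lost without HSC-3. With siCtrl, KON and Ca9-22 were nearer to each other than to HSC-3, and no pair of lines was tested on its own. Over the 6 arrays, the 3 gene names whose probes followed the TP63 probe most closely were SH3PXD2A (Pearson r = 0.998), MED1 (r = 0.995), and POLE4 (r = 0.989), among 18094 probes well above background on all arrays. These values describe 6 points that share lines and siRNAs.

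TP73 was dim, and neither of its 2 probes passed the filter, which asked for a probe to be well above background on at least 1 array of each line. Both probes were well above background in HSC-3 with siCtrl and in Ca9-22 with either siRNA, and on none of the other 3 arrays. In HSC-3, probe A_24_P413470 went from -0.83 with siCtrl to a value not well above background, a decrease of at least 6.78-fold, and probe A_33_P3296831 went from -1.99, a decrease of at least 3.05-fold. In Ca9-22 the log2 fold changes were -0.69 and -0.31. No fold is given for KON, where neither array was well above background. TP73 was therefore not among the 14 member probes tested. With no filter on dim probes, limma gave adjusted p = 0.63 for A_24_P413470 and 0.584 for A_33_P3296831.

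**Figure D1:**
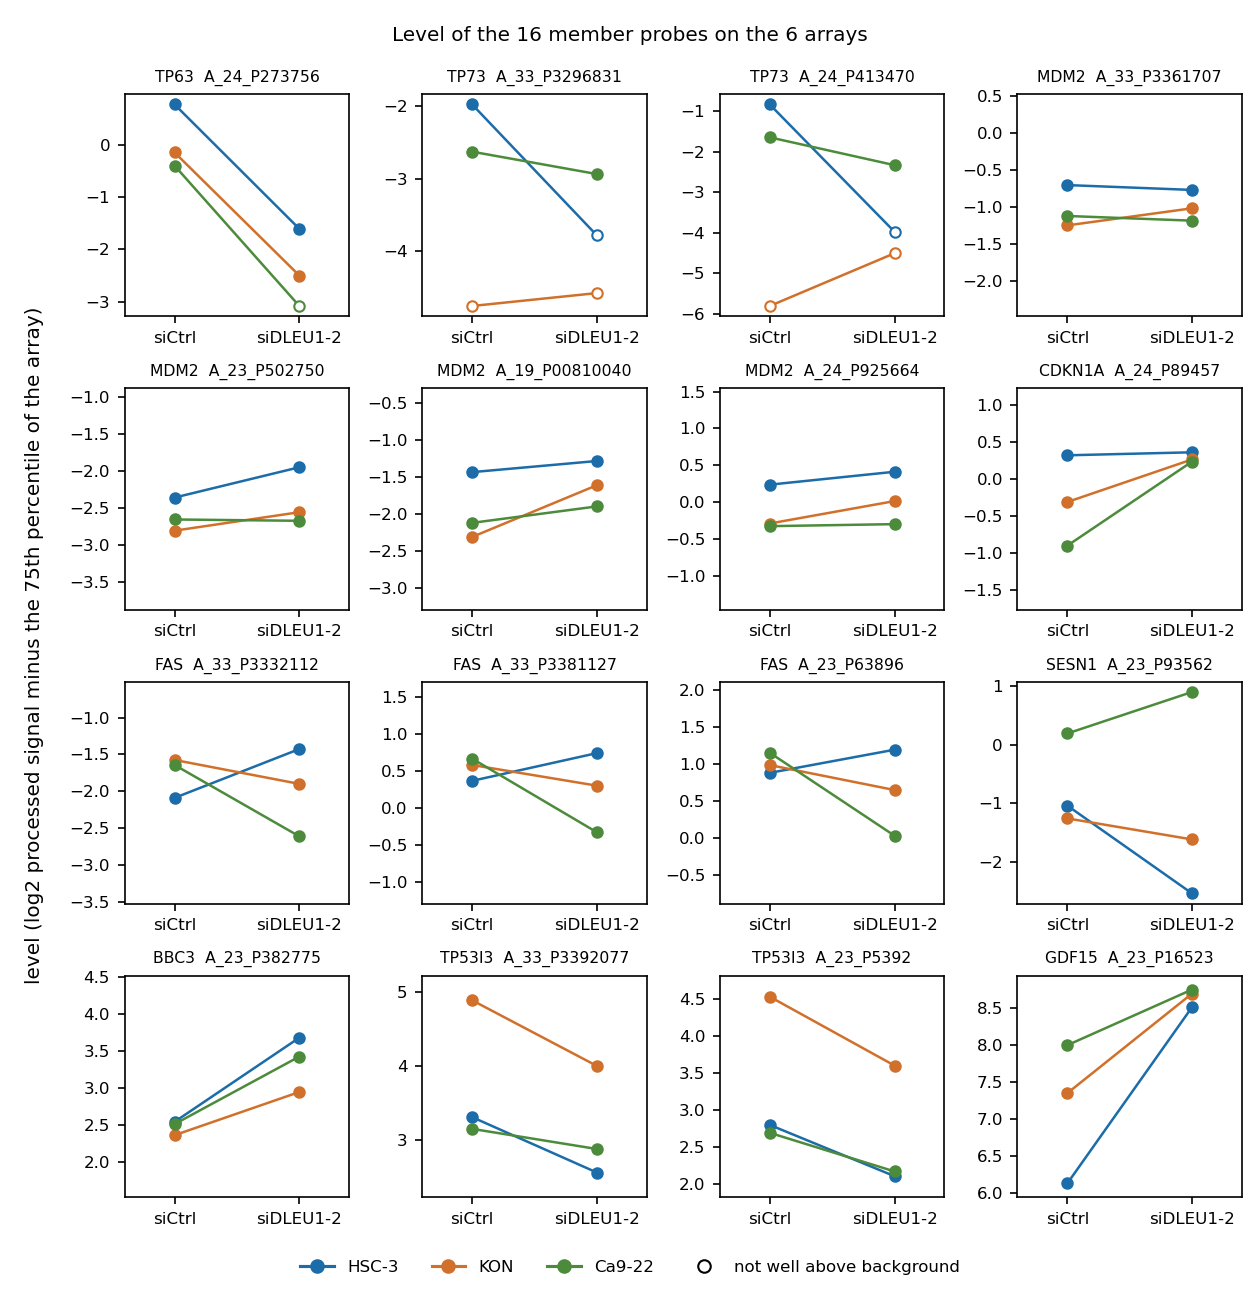
Level of each of the 16 member probes (y axis, log2 processed signal minus the 75th percentile of the array) with siCtrl and siDLEU1-2 (x axis), with 1 colored line per cell line and 1 array per point; each panel has its own y range of at least 3 units. Open points were not well above background. The TP63 lines fall in parallel from 0.77, -0.15, and -0.40, the GDF15 lines meet near the top of their panel, and the FAS and SESN1 lines cross or diverge.

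MDM2, the negative regulator of p53, was not called with any of its probes. Its 4 probes, on the plus strand of chromosome 12 in hg19, start at positions 69233570, 69233822, 69236905, and 69238891, and each gave a signal well above background on all 6 arrays. The first of them covers the end of the coding sequence and closes with the stop codon, shown in capitals.
MDM2 A_33_P3361707: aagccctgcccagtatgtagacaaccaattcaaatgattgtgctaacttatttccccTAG
For this coding probe the level went from -0.71 to -0.77 in HSC-3, from -1.25 to -1.02 in KON, and from -1.13 to -1.19 in Ca9-22. The mean log2 fold change was 0.03 ± 0.17 (SD, n = 3 lines), with a 95% confidence interval of -0.39 to 0.46. This interval and those below are t intervals from the 3 line values, not from the limma fit. Across the 3 probes that lie further 3′, the means were 0.21, 0.36, and 0.17, and none of the 4 was called (limma adjusted p = 0.25 to 0.904). The widest 95% confidence interval, that of A_19_P00810040, was -0.38 to 1.10, and its mean of 0.36 was 0.19 without KON. The mean of A_23_P502750 was 0.12 without HSC-3, with an interval of -0.32 to 0.75 over all lines, and that of A_24_P925664 was 0.10 without KON. The change was largest in KON for 3 of the 4 probes, up to 0.70 for probe A_19_P00810040, and in HSC-3 for the other.

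CDKN1A, which encodes the cell cycle inhibitor p21, was measured by 1 probe on the plus strand at chr6:36652178-36652237, in the coding sequence.
CDKN1A A_24_P89457: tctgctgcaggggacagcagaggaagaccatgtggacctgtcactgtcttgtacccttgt
Its level went from 0.32 to 0.36 in HSC-3, from -0.31 to 0.27 in KON, and from -0.90 to 0.24 in Ca9-22. The groups overlapped, because the HSC-3 control array was already as high as the knockdown arrays. The 3 control arrays spread over an SD of 0.61, and the 3 siDLEU1-2 arrays over an SD of 0.07. The mean log2 fold change was 0.59 ± 0.55 (SD, n = 3 lines) and was not called (limma adjusted p = 0.199), with a 95% confidence interval of -0.78 to 1.95. The largest value, 1.14 in Ca9-22, was 2.20-fold on 1 pair of arrays. The gene names with the closest pattern to CDKN1A over the 6 arrays were THEM4 (Pearson r = 0.991), FAM193B (r = 0.988), and UBE2W (r = 0.982). They are the highest of 18093 candidate probes over 6 points that share lines and siRNAs, so they do not establish coexpression.

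Of the death genes, BBC3 rose in all 3 lines. Its probe lies on the minus strand at chr19:47724174-47724233. With siCtrl the level was 2.54 for HSC-3, 2.36 for KON, and 2.51 for Ca9-22, and with siDLEU1-2 it was 3.68, 2.95, and 3.43. The control levels were close together and every knockdown array was above all of them. The log2 fold changes of 1.14, 0.58, and 0.91 gave a mean of 0.88 ± 0.28 (SD, n = 3 lines), with a limma standard error of 0.168 (adjusted p = 0.0493). BBC3 was the only 1 of the 14 member probes tested that was called higher, where 3.98% of all probes were. The call lay at the threshold. It was lost when the arrays were centered on the median (adjusted p = 0.0632) or on the 75th percentile of the probes detected on all arrays (0.0507), and when HSC-3 (0.156), KON (0.115), or Ca9-22 (0.152) was left out. It was also lost with no filter on dim probes, without the replicate block, and with the methods' t-test.

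FAS, the death receptor of the extrinsic pathway, moved in opposite directions in different lines. It has 3 probes on the plus strand of chromosome 10. The probe at chr10:90774148-90774207 covers the end of the coding sequence and its last bases are the stop codon, in capitals. The other 2, starting at 90774517 and 90774545, overlap by 32 bases and share that sequence, so they are not separate measurements.
FAS A_33_P3332112: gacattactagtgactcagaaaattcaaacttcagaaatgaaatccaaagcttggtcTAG
With this coding probe the level went from -2.09 to -1.43 in HSC-3, from -1.57 to -1.90 in KON, and from -1.64 to -2.61 in Ca9-22. The other 2 probes had the same order of lines, with log2 fold changes of 0.38 and 0.31 for HSC-3, -0.28 and -0.34 for KON, and -1.0 and -1.12 for Ca9-22. No FAS probe was called by limma (adjusted p = 0.455 to 0.721), and the SD of the 3 line values, 0.69 to 0.82, exceeded the size of every mean. With 1 array per line and siRNA, this difference between lines was not tested.

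SESN1, whose protein restrains mTORC1 under stress, also went opposite ways. Its probe lies on the minus strand at chr6:109308477-109308536. The level went from -1.04 to -2.53 in HSC-3, from -1.25 to -1.61 in KON, and from 0.19 to 0.89 in Ca9-22. The fold change was 2.81-fold lower in HSC-3 and 1.63-fold higher in Ca9-22, and the mean of -0.38 ± 1.10 (SD, n = 3 lines) was not called (limma adjusted p = 0.606). Both Ca9-22 arrays were above all arrays of the other lines, and the limma F-test between lines gave an adjusted p of 0.0363, a call lost without KON, without Ca9-22, and with no filter on dim probes. SESN1 and the coding FAS probe were the 2 member probes that were over 1.5-fold higher in 1 line and over 1.5-fold lower in another, which 2.98% of all probes tested were. The lines that went up and down were not the same for them, as HSC-3 was the high line for FAS and the low line for SESN1.

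The RefSeq promoter windows of these genes in GRCh38.p14, from 250 bases before to 50 after a start, were searched for the p53 half-site, a palindromic consensus of 10 bases that reads alike on both strands. It was present in 2 of the 18 windows of the 9 genes, and in 6.63% of 35116 windows of all genes. The 2 windows belonged to SESN1 and FAS. The matches are shown in capitals within 30 bases, at chr6:109009018-109009047 on the minus strand, 49 to 40 bases before 1 of the SESN1 starts, and at chr10:88991299-88991328 on the plus strand, 122 to 113 bases before 1 of the FAS starts. They describe letters in these windows, and no binding was measured.
SESN1: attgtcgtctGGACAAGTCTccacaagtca
FAS: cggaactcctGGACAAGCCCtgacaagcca

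TP53I3, an enzyme gene named for its induction by p53, had lower values after siDLEU1-2 in all 3 lines without passing the test. It has 2 probes on the minus strand of chromosome 2. The first spans a splice junction, since its 60 bases are spread over chr2:24300615-24302356 and skip 1682 bases, and the second lies at chr2:24300504-24300563. Both are shown because they are separate stretches of the same coding sequence.
TP53I3 A_23_P5392: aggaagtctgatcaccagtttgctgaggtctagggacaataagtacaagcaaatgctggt
TP53I3 A_33_P3392077: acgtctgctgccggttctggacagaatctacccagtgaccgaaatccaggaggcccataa
With the junction probe the level went from 2.79 to 2.10 in HSC-3, from 4.53 to 3.60 in KON, and from 2.69 to 2.16 in Ca9-22. The groups overlapped because KON was higher than the other lines with either siRNA. The mean log2 fold change was -0.72 ± 0.21 (SD, n = 3 lines; limma adjusted p = 0.0583) for the junction probe and -0.64 ± 0.32 for the second probe (adjusted p = 0.0972). With normexp background correction, the junction probe had an adjusted p of 0.037, and with only probes well above background on all 6 arrays it had 0.0437, so its side of the threshold depended on these choices. The second probe was not called under any of 12 alternatives. The level differed between lines with both probes (limma F-test, adjusted p = 0.00772 and 0.0114), and both calls were lost without KON. KON had a mean level of 4.06 with the junction probe, against 2.45 in HSC-3 and 2.43 in Ca9-22, and the last 2 values are closer than the change after siDLEU1-2.

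GDF15, the stress cytokine, had the largest positive mean of the member probes that were tested, and its probe lies on the plus strand at chr19:18499890-18499949. With siCtrl the level was 6.13 for HSC-3, 7.35 for KON, and 8.0 for Ca9-22. With siDLEU1-2 it was 8.52, 8.70, and 8.76. The control arrays spread over an SD of 0.95 and the siDLEU1-2 arrays were nearly alike, with an SD of 0.12. No spot on any array was saturated. The log2 fold change was therefore uneven, at 2.39 for HSC-3, 1.35 for KON, and 0.75 for Ca9-22, with a mean of 1.50 ± 0.83 (SD, n = 3 lines). All siDLEU1-2 arrays were above all control arrays, but limma did not call the probe (adjusted p = 0.0655). It was called with normexp background correction (0.0447) and when only probes well above background on all 6 arrays were tested (0.0465).

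**Figure D2:**
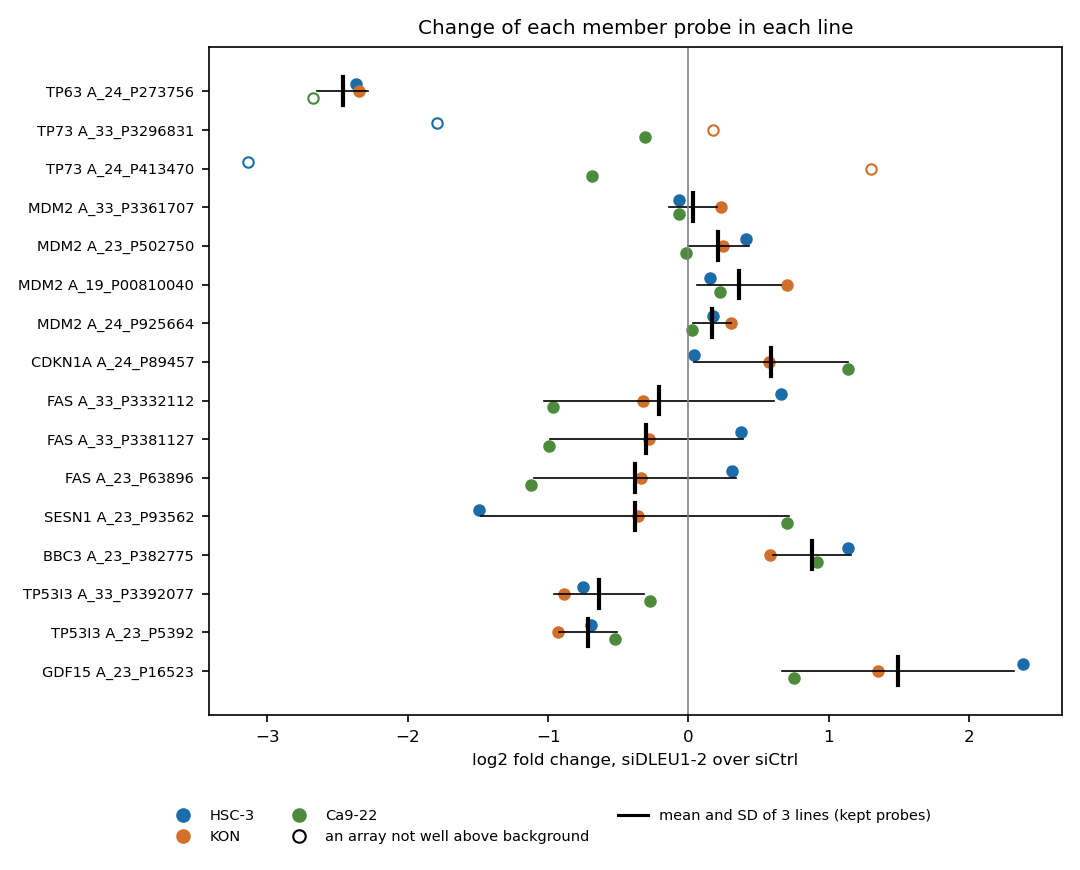
Log2 fold change of siDLEU1-2 over siCtrl (x axis) for each member probe (y axis), with 1 colored point per cell line; open points have an array not well above background. Black bars are the mean and SD of the 3 lines for the 14 probes tested. TP63 lies near -2.46, BBC3 and GDF15 are to the right of 0 in every line, both TP53I3 probes are to the left, and the FAS and SESN1 points fall on both sides.

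Considered together, 2 of the 14 member probes tested were called, TP63 lower and BBC3 higher, beside 1697 of all 19956 probes. The groups of 3 arrays did not overlap for TP63, BBC3, and GDF15, which are 3 of the 14 probes, where 11.0% of all probes tested did not overlap. TP63, BBC3, GDF15, CDKN1A, both TP53I3 probes, and MDM2 probes A_19_P00810040 and A_24_P925664 moved the same way in all 3 lines. Of all probes tested, 53.6% did so. At an unadjusted p under 0.05, limma had 5 of the 14 member probes, which were TP63, BBC3, GDF15, and both TP53I3 probes, and 5893 of all 19956. The median log2 fold change of the 8 member genes tested was -0.05, and it was 0.01 over 15281 gene names. Between lines, 4 of the 14 member probes were called by the F-test, for TP63, TP53I3 with both probes, and SESN1, where 53.8% of all probes were.

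**Figure D3:**
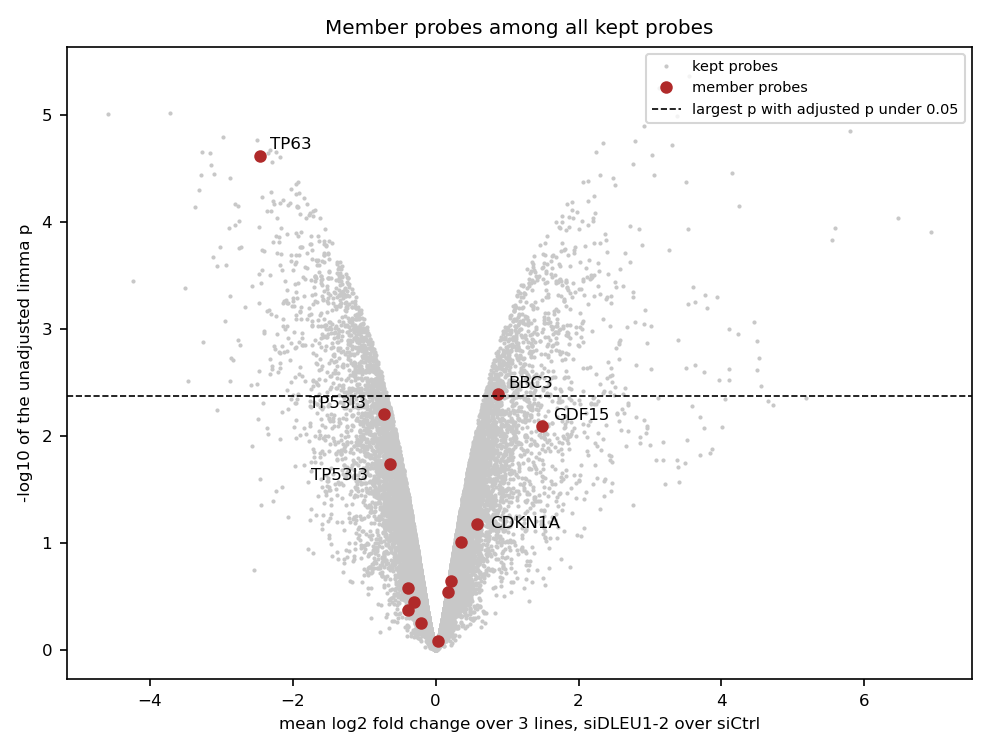
Mean log2 fold change over the 3 lines (x axis) against the -log10 of the unadjusted limma p (y axis) for 19956 probes (gray) with the 14 member probes tested in red. The dashed line is the largest p that stays under an adjusted p of 0.05. TP63 (adjusted p = 0.0227) is far above the line on the left, and BBC3 (adjusted p = 0.0493) is just above it on the right.

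Of a wider list of 45 p53 target genes, PRDM1 was called higher and TRIM22 and SFN were called lower. With 39 of the genes tested, these counts of 1 and 2 are near the background, since 4.58% of all gene names had a probe called higher and 5.11% had a probe called lower. The median over the 39 genes was -0.03, and they ranged from -2.10 to 1.57. PRDM1, which encodes the transcriptional repressor BLIMP1, rose with 1 of its 2 probes, by 1.38 for HSC-3, 1.94 for KON, and 2.20 for Ca9-22 (mean 1.84, limma adjusted p = 0.0251). Its other probe was not well above background in Ca9-22 with siCtrl, where the increase was at least 2.33-fold, and had a mean of 1.30 from the measured signals (adjusted p = 0.0512).

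TRIM22, an interferon-induced ubiquitin ligase that p53 also activates, went from 3.74 to 2.17 in HSC-3. Its siDLEU1-2 arrays in KON and Ca9-22 were not well above background, so the decrease was at least 3.05-fold in KON and at least 6.29-fold in Ca9-22. The fit, which used the measured signals of those arrays, gave a mean of -2.10 (limma adjusted p = 0.0264), and -1.94 (0.0261) once dim values were set to the floor. With normexp background correction its mean was -1.15. In KON and Ca9-22, TRIM22 passed the filter only through the siCtrl arrays, where it was higher. The filter on all 6 arrays removes its probe. SFN, which encodes the epithelial checkpoint protein 14-3-3 sigma, fell from 9.14 to 8.47 in HSC-3, from 7.92 to 6.89 in KON, and from 8.21 to 7.48 in Ca9-22 (mean -0.81, adjusted p = 0.047), and lost the call with quantile normalization. All 3 calls of this list were lost whenever any of the 3 lines was left out.

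Of 30 genes that act on p53 and its relatives, all were tested, none was called higher, and SMYD2 and ATM were called lower, with a median of 0.07. The 2 lower calls are near the 5.11% of all gene names with a probe called lower, and 4.58% had a probe called higher. SMYD2, a lysine methyltransferase that can modify p53, fell by 2.32, 2.43, and 2.23 in HSC-3, KON, and Ca9-22 on the log2 scale (mean -2.32, limma adjusted p = 0.0227). ATM, the kinase that activates p53 after DNA breaks, was called lower with 1 of its 2 tested probes (mean -1.14, adjusted p = 0.0274), while the other had a mean of -0.08 (adjusted p = 0.822). The ATM call stands for that probe and not for the gene. It was lost with any line left out, with normexp background correction, and with the filter on all 6 arrays, which removes the probe because 1 array, KON with siDLEU1-2, was not well above background. The SMYD2 call was lost without HSC-3 or without KON. Neither gene was called with no filter on dim probes, without the replicate block, or with the methods' t-test. Of the MDM2 partner MDM4, none of the 4 probes was called, and their means were -0.01 to 0.85.

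Of the known p63 targets of stratified epithelium, all 16 genes were tested, none was called higher, and 4 were called lower, where 4.58% and 5.11% of all gene names were, with a median of -1.06 over the 16 genes. The list includes genes that the study discusses from these same arrays, so it is not independent evidence of a direction. ITGB4, a hemidesmosome integrin, went from 7.35 to 4.90 in HSC-3, from 5.53 to 2.14 in KON, and from 6.39 to 4.04 in Ca9-22 (mean -2.73, limma adjusted p = 0.0247). BNC1, a basal cell transcription factor, had a mean of -1.19 (adjusted p = 0.0368). HAS3, a hyaluronan synthase, had a mean of -4.24 with 1 probe (adjusted p = 0.0247) and -0.30 with the other (0.236). CD44, the hyaluronan receptor, had a mean of -3.15 with 1 probe (0.0227) and 1.04 with the other (0.0845), which was not well above background in Ca9-22 with siCtrl. The HAS3 probes therefore differed in size, with both lower in all 3 lines, and the CD44 probes had opposite signs.

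The other 12 genes of this list were not called. COL17A1, another hemidesmosome component, had a mean of -1.22 (limma adjusted p = 0.0524), and the basal keratin KRT5 had -1.14 (0.114). The Notch ligand gene JAG2 had -1.0 (0.061). COL17A1 was called lower under 4 alternatives (adjusted p = 0.0349 to 0.0495) and JAG2 under 3 of them (0.0443 to 0.0491). Only LAMA3 and RIPK4 had a positive mean over their tested probes, and the higher of these was 0.35. The number called lower depended on the processing and was 6 with normexp background correction, 3 without Ca9-22, and 0 without HSC-3 or without KON. Among squamous epithelial markers, KRT6A (mean -1.33, adjusted p = 0.0247) and SFN were called lower of 8 genes and none was called higher, beside the same 5.11% and 4.58% of gene names. EPCAM had a mean of 1.09 (limma adjusted p = 0.0741), JUP 0.47 (0.117), and KRT17 0.14 (0.862), and these were not called. The summed signal of the squamous marker list, relative to the 75th percentile, was 536 to 1680 with siCtrl and 422 to 926 with siDLEU1-2. KRT5 and KRT14 are in both lists. Of the fibroblast markers, COL1A1 was called higher (mean 1.45, adjusted p = 0.0423), and the summed signal of that list was 0.768 to 0.921 with siCtrl and 1.75 to 2.96 with siDLEU1-2, with COL1A2, COL3A1, LUM, and PDGFRB not well above background on any array. The summed signal of the endothelial markers was 0.331 to 0.967 with siCtrl and 0.509 to 1.81 with siDLEU1-2, and neither CDH5 (mean 1.15, limma adjusted p = 0.113) nor VWF (0.93, 0.252) was called. Among leukocyte markers CD14 had a mean of 0.51 (0.0866), and the summed signal was 0.772 to 48.4 and 1.15 to 65.0. Each sum adds probes that bind differently, so 1 bright gene can dominate it. With siCtrl, the CD14 level was 5.58 in HSC-3 and -2.28 in Ca9-22. COL1A1 was the only fibroblast marker well above background on all 6 arrays. The part of these marker shifts in the TP63 and p63 target results was not tested.

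**Figure D4:**
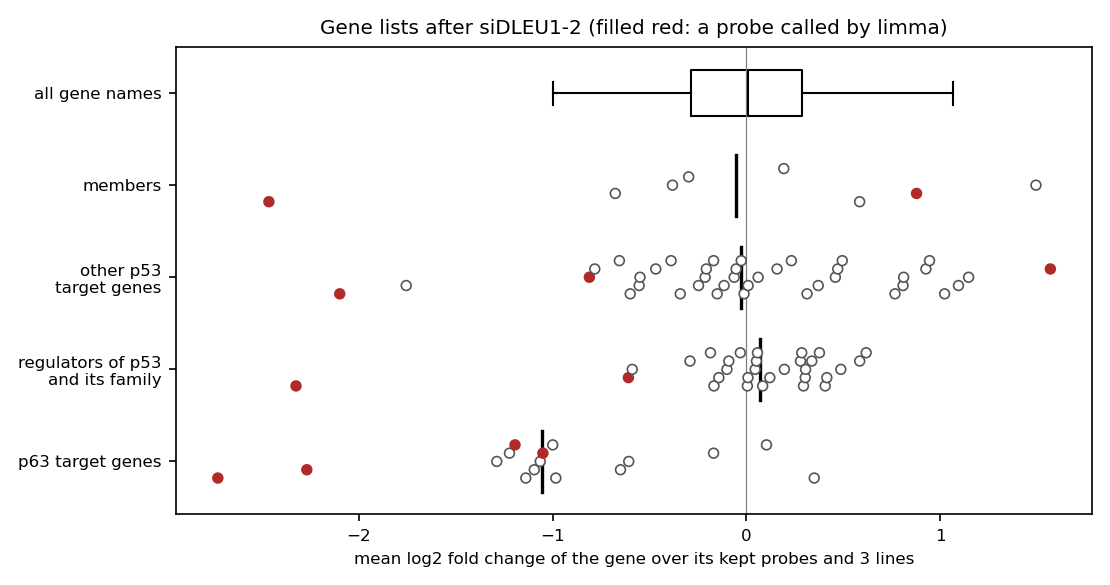
Mean log2 fold change of each gene over its tested probes and the 3 lines (x axis) for the members and 3 further gene lists (y axis), with the black bar at the median; red points have a probe called by limma. The box shows the quartiles of all 15281 gene names, with whiskers at the 5th and 95th percentiles. The p63 target genes have a median of -1.06, and the other lists have medians between -0.05 and 0.07.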

How the data were processed

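Per the file headers, the authors made the scanner files with Agilent Feature Extraction 10.7.3.1, and the deposited intensity used here is the processed signal of each spot, background-subtracted, linear, and not normalized between arrays. Probe coordinates are those of the files (hg19). The study names GeneSpring GX, and its normalization and filter are not given in the sources used here.

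From the deposited intensity, log2 was taken, control and outlier spots were dropped, spots of a probe were averaged, and the 75th percentile of each array was subtracted. Of 50599 probes, 19956 were tested, which were well above background (at least 50% of spots) on at least 1 array of every line. A linear model with siRNA and cell line as terms was fitted in limma 3.58.1 (lmFit, eBayes; R 4.3.3), two-sided, with Benjamini-Hochberg adjustment over all tested probes and a threshold of 0.05. The cell line pairs the arrays, and deviations from the siRNA means correlated at 0.828 for HSC-3, 0.813 for KON, and 0.822 for Ca9-22. No sign-flip test is given, as the smallest p that 3 lines allow in an exact test is 0.25. The fit was also run on data simulated from the same model, which checks the computation and not the model's assumptions. Where 1 array of a line was dim, the fold was taken against the higher of the dim value and the lowest signal well above background on that array. Where the dim value was the higher, as for TP63 in Ca9-22, the fold is the measured ratio and not a bound. The number of arrays limits the precision.

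Members and lists were chosen with earlier results of these data known. Named genes were all members, the called genes of the other lists (at most 5 per direction), and the 3 closest probes by Pearson r. Other named list genes (KRT5, COL17A1, MDM4, LAMA3, RIPK4, JAG2, EPCAM, JUP, KRT17, CD14, CDH5, VWF, CDKN2A, IGFBP3, BTG2) were chosen after their values were seen. Promoter windows are from RefSeq (GRCh38.p14), with all 9 members matched by symbol, and the guide strand is from the study's supplement. Alternatives covered centering, background correction, filters, the test, and leaving out each line. The series table holds the same intensity, rounded (largest difference 0.497%).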

Additional observations from a re-analysis of the deposited data

Results flagged for a closer look

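The log2 fold change of the FAS probe A_33_P3332112 spanned 1.63 over the 3 lines, with 0.66 for HSC-3, -0.32 for KON, and -0.97 for Ca9-22. It stood out because lines moved in opposite directions by over 1.5-fold each way. The log2 fold change of the SESN1 probe spanned 2.20, with -1.49 for HSC-3, -0.36 for KON, and 0.71 for Ca9-22, and stood out for the same reason. Neither difference between lines was tested, because each line has 1 array per siRNA.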

How the results depend on the processing

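TP63, GDF15, BBC3, CDKN1A, and both TP53I3 probes kept the sign of their mean under every alternative run for them (11 or 12 each), and no member probe reversed with a call. The CDKN1A mean was 0.31 without Ca9-22, against 0.59. The sign of uncalled means changed for SESN1 without HSC-3 (0.17), for FAS probes A_33_P3332112 (0.17) and A_33_P3381127 (0.05) without Ca9-22, and for MDM2 probe A_33_P3361707 without KON (-0.06) and with median centering (-0.04). Without the replicate block for cell line, 0 member probes were called higher and 0 lower, and 0 genes of the wider p53 target list in either direction (limma, 1357 probes and 3 member probes at an unadjusted p under 0.05). The same 4 counts were 0 with the methods' t-test after Benjamini-Hochberg (1373 and 2 unadjusted), which ignores the pairing, and 0 with no filter on dim probes (6816 and 5 unadjusted, 50544 probes tested). Over the fits that left out 1 line, 0 member probes were called higher, 0 to 1 lower, 1 to 3 different between lines, and 1 to 2 were over 2-fold the same way, with 0 p53 target genes higher and 0 lower. The lowest line count, 1, was without KON, and the 2 probes over 2-fold were without Ca9-22.

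Median centering and the 75th percentile over probes detected on all arrays each called 0 member probes higher. Normexp called 2 higher and 2 lower, and 2 p53 target genes higher and 4 lower, while the calls over all 19956 probes went from 1697 to 2308. The filter on all 6 arrays called 2 member probes higher and left 0 over 2-fold, since it removes TP63. Quantile normalization called 1 p53 target gene lower. The p63 target genes called lower were 4, and 0 to 6 over the alternatives. With 3 lines and 1 array per line and siRNA, the spread within a line is unknown, dim probes such as TP73 are limited by background, and causes of these shifts were not tested.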

Other observations

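The genes below were chosen after their values were seen. IGFBP3, which encodes a secreted binding protein of insulin-like growth factors, failed the filter and was not tested. It went from -0.61 to 6.22 in HSC-3 and from 2.09 to 4.57 in KON after siDLEU1-2, and was not well above background on either Ca9-22 array. BTG2, an antiproliferative gene, was tested and fell short of the threshold with a mean of -1.76 (limma adjusted p = 0.0541) and values of -2.63 for HSC-3, -1.78 for KON, and -0.87 for Ca9-22. It was called under 4 alternatives, with adjusted p of 0.0487 (median centering), 0.037 (normexp), 0.0379 (filter on all 6 arrays), and 0.0467 (dim values set to the floor).

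CDKN2A, whose products include p16 and the MDM2 inhibitor ARF, was high in HSC-3 and Ca9-22 and low in KON with either siRNA. With its tested probe, the level was 6.15 and 6.14 in HSC-3, 5.78 and 5.56 in Ca9-22, and -0.08 and 0.34 in KON, with siCtrl and siDLEU1-2. It was chosen for this pattern, so no test is given for it, and 53.8% of all probes tested were called between lines by the limma F-test. Its mean change after siDLEU1-2 was 0.06 on the log2 scale (limma adjusted p = 0.866).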
